A study of Mus spretus with 19 samples.

Results

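Kupffer cell and antigen presentation markers are 10 genes read by 15 probes of a mouse expression array: Marco, Clec4f, Cd5l, Vsig4, Cd68 and Emr1 for the liver's resident macrophages, and H2-Aa, H2-Ab1, H2-Eb1 and Cd74 for class II antigen presentation. They were chosen by these gene symbols in the array's own annotation, and all 10 symbols were present, among 16346 genes and transcripts tested and 41174 gene probes. The study measured livers of male Algerian mice (Mus spretus), wild animals trapped at 5 places in southwestern Spain. SOL is the Santa Olalla lagoon, labelled unpolluted. The 4 places labelled polluted are PS, at phosphogypsum stacks, and DR1, DR4 and DR6 along the Domingo Rubio stream, in its lower, medium and upper reaches in that order. No agent was given to any animal, and age is not stated in the labels. RNA was extracted from single livers, and 9 livers per place were pooled into 1 RNA pool, which was labelled and hybridised 4 times (3 arrays are analysed here for DR6), for 19 single-colour arrays in all. The 4 arrays of a place are therefore technical: a p-value over arrays measures the spread of labelling and hybridisation, not the spread between mice. Each place also has its own slide and its own scan, so place, pool, slide and scan cannot be told apart.

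Kupffer cells are macrophages that line the liver sinusoids and take up particles, bacteria and aged blood cells from portal blood. Class II molecules are pairs of an alpha and a beta chain that show peptides from engulfed material to helper T cells, and Kupffer cells, dendritic cells and B cells all carry them. In a bulk liver pool, fewer cells of a type and less RNA per cell cannot be told apart.

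Levels are log2 signals relative to the 75th percentile of the same array's gene spots, so 0 is that percentile. Levels of different genes are not set against each other. Probes of the same gene are compared to choose the brightest, and by how their log2 ratio moves over the places. A gene was called between places when limma's moderated test gave an adjusted p under 0.05 over all genes and the means differed by at least 2-fold (1 on the log2 scale). The alternatives named with single results are median and quantile scaling of the arrays, and normexp, a model-based background correction of the raw spot signals with an offset of 50. The offset is added to every signal, so it shrinks the folds of dim probes. For a dim probe, a call lost under normexp therefore does not test that call. The 75th percentile signal ran from 99.5 to 285.2 over the 19 arrays, and 52.0% to 61.5% of gene spots were well above background. The probe used for each of the 10 genes was well above background on all 19 arrays and saturated on none, so the Kupffer cell markers were measurable in every pool. All 10 hepatocyte genes on the array passed the detection filter, Alb1 (albumin), Ttr and Apoa1 among them. Genes of other cell types passed it too, so this does not test the liver label. Place means ran from 8.32 to 9.09 for Alb1, 7.88 to 8.21 for Apoa1 and -0.26 to 0.68 for Ttr.

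The probe sequences that the results turn on are shown first, because probes of the same class II gene did not give the same pattern over the places. Each is a 60-base probe designed for the house mouse, printed 5′ to 3′. The first pair reads H2-Aa, the class II alpha chain, and the files place them on the minus strand of mm8 at chr17:33892022-33892081 and chr17:33892680-33892739. The next 3 read H2-Ab1, the beta chain partner of H2-Aa. The files place the first of these at chr17:33875638-33875697 and the second at chr17:33872973-33873032, both on the plus strand, and give no position for the third. Capitals mark the 31 bases over which the last pair of H2-Ab1 probes overlap. Within that overlap they differ by 2 substitutions, T5A and T20A, counted from 1 at the 5′ end of A_51_P215242, whose base stands first.
H2-Aa A_51_P119760: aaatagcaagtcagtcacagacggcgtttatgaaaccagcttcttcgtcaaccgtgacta
H2-Aa A_52_P343306: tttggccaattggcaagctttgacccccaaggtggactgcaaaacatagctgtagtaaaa
H2-Ab1 A_51_P215237: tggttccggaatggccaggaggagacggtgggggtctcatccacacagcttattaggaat
H2-Ab1 A_51_P215242: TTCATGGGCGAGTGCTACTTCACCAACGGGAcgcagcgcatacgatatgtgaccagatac
H2-Ab1 A_52_P570717: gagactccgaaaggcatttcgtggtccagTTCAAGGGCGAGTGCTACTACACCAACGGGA

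The following 3 probes are each the only probe of their gene. Marco, Cd5l, Vsig4 and Cd74 are also read by a single probe each, not printed here. The position given for the Marco probe, A_51_P371750, spans 20 bases, chr1:122302084-122302103 on the minus strand, which is shorter than the probe. H2-Eb1 is the beta chain of the second class II pair. Its probe maps over an interval of 462 bases, chr17:33922800-33923261 on the plus strand, which is longer than the probe. Clec4f, a lectin receptor found on Kupffer cells, is read at chr6:83610945-83611003 and Cd68, a lysosomal membrane glycoprotein of macrophages, at chr11:69481007-69481066, both on the minus strand of mm8. The files name the gene of each position and not the exon. None of the 15 probes (0) shares a run of 20 bases with a probe of another gene on the array. Whether sequence differences between Mus spretus and the house mouse affect any probe was not tested.
H2-Eb1 A_51_P393226: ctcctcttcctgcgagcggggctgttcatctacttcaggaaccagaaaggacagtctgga
Clec4f A_51_P271865: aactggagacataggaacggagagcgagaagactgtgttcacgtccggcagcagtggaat
Cd68 A_51_P120470: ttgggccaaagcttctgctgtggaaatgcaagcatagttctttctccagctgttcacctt

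Marco, a scavenger receptor for bacteria and particles, differed most among the 10 genes. Its 4 SOL arrays read 6.19, 6.46, 6.32 and 6.21. The 4 PS arrays read 5.58, 5.70, 5.68 and 5.78, and the 4 DR1 arrays 5.50, 5.66, 5.75 and 5.52. The 4 DR4 arrays read 4.61, 4.46, 4.43 and 4.32, and the 3 DR6 arrays 4.10, 4.13 and 3.99. PS and DR1 overlapped each other and lay below every SOL array, while DR4 and DR6 lay below all of those, without overlapping. The order of means was SOL, PS, DR1, DR4, DR6, over a 4.67-fold range, and of neighbours in that order only PS against DR1 missed the adjusted p (0.43, limma). Marco fell at DR4, to 27.9% of its SOL level (log2 change -1.84, SE 0.079, adjusted p = 5.51e-12, limma). It also fell at DR6, to 21.4% (-2.22, SE 0.085, adjusted p = 3.82e-12, limma). At PS and DR1 it stood at 65.6% and 62.1% of SOL, with adjusted p under the threshold (1.55e-05 and 2.35e-06, limma) and folds short of 2. The DR4 and DR6 calls of Marco held under each scaling, background and filter tried, with changes from -1.75 to -2.34 at DR4 and from -2.21 to -2.31 at DR6.

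Clec4f followed another order. The SOL arrays read 2.50, 2.40, 2.30 and 2.30, and the PS arrays 2.35, 2.35, 2.30 and 2.35. The DR1 arrays read 1.85, 1.74, 1.80 and 1.92, the DR4 arrays 0.96, 1.05, 0.94 and 0.85, and the DR6 arrays 1.62, 1.62 and 1.63. SOL and PS overlapped, and the 3 stream places lay below them in 3 separate bands with DR4 lowest. Clec4f fell at DR4 to 37.2% of SOL (-1.43, SE 0.057, adjusted p = 2.42e-12, limma). It stood at 68.5% at DR1 and 59.2% at DR6, both past the adjusted p but not the 2-fold limit, and at 97.5% at PS (adjusted p = 0.66). SOL against PS was the only step between neighbours in the order of Clec4f (SOL, PS, DR1, DR6, DR4) that missed the adjusted p.

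Emr1 encodes F4/80, a surface receptor used as a general marker of mouse tissue macrophages (now named Adgre1). Its brighter probe read 3.37, 3.46, 3.27 and 3.38 at SOL, 3.37, 3.41, 3.32 and 3.27 at PS, and 3.24, 3.40, 3.34 and 3.43 at DR1. It read 2.42, 2.30, 2.27 and 2.30 at DR4 and 2.90, 2.84 and 2.66 at DR6. SOL, PS and DR1 overlapped fully, DR6 lay below them and DR4 below DR6. Emr1 fell at DR4 to 48.2% of SOL (-1.05, SE 0.064, adjusted p = 5.86e-10, limma), close to the 2-fold limit, and the call was lost with the normexp background and quantile scaling together (-0.98). At DR6 it stood at 67.1% (adjusted p = 4.96e-06, limma), and at PS and DR1 at 97.9% and 98.8% (adjusted p = 0.75 and 0.84). The DR4 pool was also below the DR1 pool of the same stream by 1.03 (SE 0.064, adjusted p = 2.04e-09, limma), a call lost with quantile scaling (0.99), with normexp and quantile scaling together (0.74) and with the mean of both probes (0.73).

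The second Emr1 probe is dim, and was not well above background on 3 of 19 arrays. It gave -0.50 at PS, -1.31 at DR1, -1.74 at DR4 and -0.62 at DR6, with an SE of 0.25 to 0.27. Both probes put DR4 lowest, and they differed most at DR1. The dim probe also put DR4 below DR6 by 2-fold (-1.13, SE 0.27, adjusted p = 0.0025, limma), a call that the brighter probe did not give (-0.48), and it was well above background on 2 of 4 DR4 arrays. Under normexp the dim probe gave -0.56 at DR1 and -0.14 at DR4, neither called.

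Cd68 had its lowest level at DR1, unlike the other 5 macrophage genes in order of means. The SOL arrays read -0.37, -0.05, -0.27 and -0.22, the PS arrays -0.17, -0.03, -0.23 and -0.02, and the DR1 arrays -1.27, -0.97, -1.33 and -1.42. The DR4 arrays read -0.73, -1.03, -0.78 and -0.91, and the DR6 arrays -0.75, -0.49 and -0.65. All stream arrays lay below all SOL and PS arrays, and DR4 overlapped both other stream places. Cd68 fell at DR1 to 49.3% of SOL (-1.02, SE 0.10, adjusted p = 4.45e-07, limma). It stood at 64.3% at DR4 (adjusted p = 4.56e-05) and 75.7% at DR6 (adjusted p = 0.0070, limma), short of 2-fold. The DR1 call sits on the 2-fold limit: it was lost under both normexp settings (-0.74 and -0.66), without SOL replicate 2 (-0.96) and without DR1 replicate 3 (-0.99) or 4 (-0.96), with the direction kept each time.

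Cd5l, a secreted scavenger protein also called AIM, and Vsig4, a complement receptor of resident macrophages, changed by less than 2-fold everywhere. Cd5l read 5.66 to 5.96 over the SOL arrays, 5.59 to 5.64 at PS and 5.57 to 5.86 at DR1, against 4.94 to 5.14 at DR4 and 5.11 to 5.20 at DR6. The DR4 and DR6 arrays thus lay below all other arrays, at 59.4% and 63.5% of SOL (-0.75, adjusted p = 2.06e-07, and -0.65, adjusted p = 5.36e-06, limma). With the normexp background the DR4 difference of Cd5l passed the 2-fold limit (-1.10). Vsig4 read 2.29 to 2.37 at SOL, 2.56 to 2.70 at PS, 2.26 to 2.37 at DR1, 1.97 to 2.09 at DR4 and 2.15 to 2.22 at DR6. Vsig4 was highest at PS, at 123% of SOL (0.30, SE 0.047, adjusted p = 0.000104, limma), and lowest at DR4, at 81.6% (-0.29, adjusted p = 4.45e-05, limma).

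**Figure D1:**
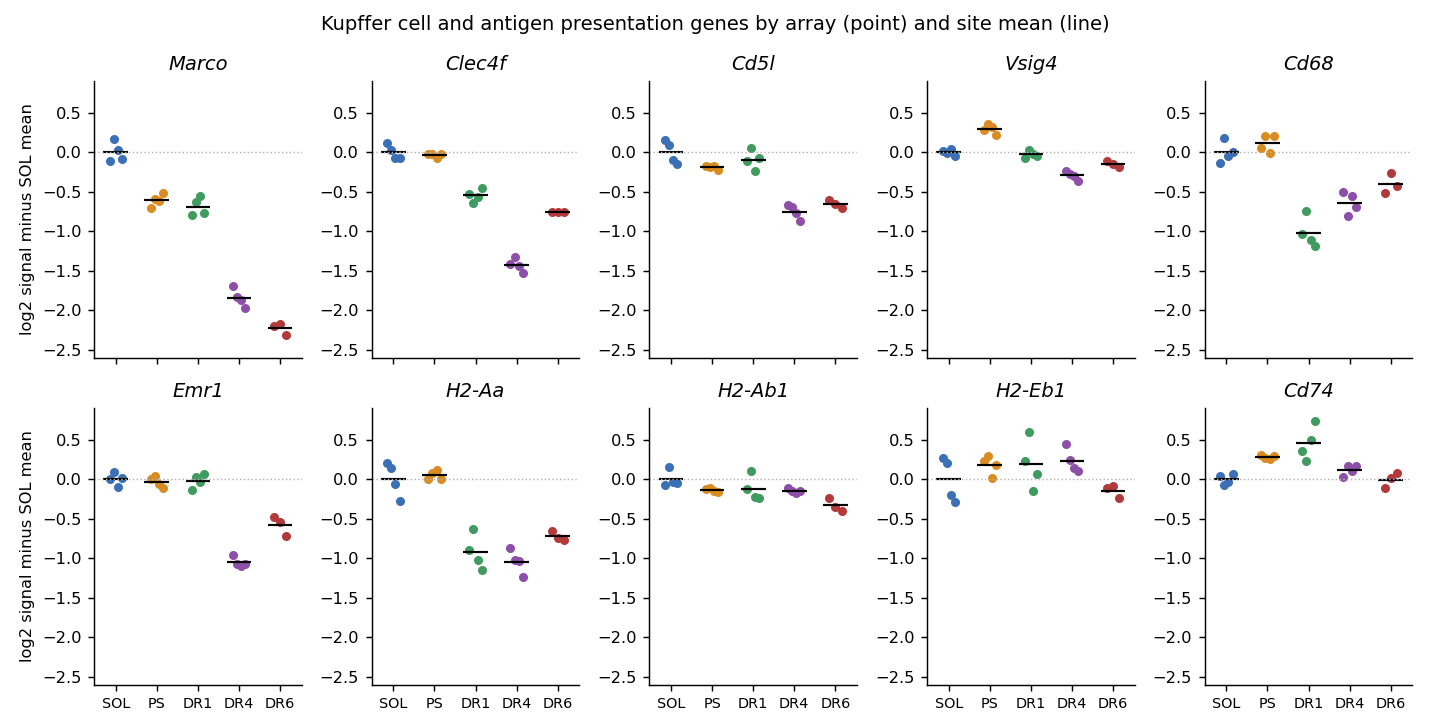
Log2 signal of each of the 10 genes on each array (points) and the mean of each place (lines), shown as the difference from the mean of the SOL arrays, over the 5 places SOL, PS, DR1, DR4 and DR6. Marco descends from SOL to DR6 (-2.22), Clec4f and Emr1 are lowest at DR4 (-1.43 and -1.05), Cd68 is lowest at DR1 (-1.02), and H2-Eb1 arrays overlap between SOL and each other place.

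Among the class II genes, H2-Aa was lower in the stream pools. Its brighter probe, A_51_P119760, read 2.01, 1.95, 1.75 and 1.53 at SOL and 1.82, 1.89, 1.92 and 1.81 at PS. It read 0.91, 1.18, 0.79 and 0.67 at DR1, 0.94, 0.79, 0.78 and 0.57 at DR4, and 1.15, 1.07 and 1.05 at DR6. All stream arrays lay below all SOL and PS arrays, which overlapped. H2-Aa fell at DR4 to 48.6% of SOL (-1.04, SE 0.11, adjusted p = 7.00e-07, limma). It stood at 52.7% at DR1 (-0.92, adjusted p = 4.70e-06) and 60.6% at DR6 (-0.72, adjusted p = 0.000156, limma), short of 2-fold. The DR4 call was lost with normexp (-0.95), with normexp and quantile scaling (-0.81), and without SOL replicate 1 (-0.97), SOL replicate 2 (-0.99) or DR4 replicate 4 (-0.97). The DR1 difference passed 2-fold without SOL replicate 4 or without DR1 replicate 2 (-1.02 each).

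The other 3 class II members changed by less than 2-fold between any places. H2-Ab1, read by its brightest probe A_52_P683598, ran from 3.76 to 3.99 at SOL, 3.67 to 3.73 at PS, 3.60 to 3.93 at DR1, 3.66 to 3.72 at DR4 and 3.43 to 3.60 at DR6. It stood at 79.6% of SOL at DR6 (-0.33, SE 0.076, adjusted p = 0.0024, limma) and did not pass the adjusted p against SOL at the other places (0.090 to 0.17). H2-Eb1 ran from 1.86 to 2.41 at SOL and from 1.91 to 2.74 over the other places, and its widest single place was DR1, from 1.99 to 2.74. No pair of places passed the adjusted p for H2-Eb1 (adjusted p among the 5 places = 0.16, limma), at an SE of 0.15 to 0.16. Its arrays at each of PS, DR1, DR4 and DR6 overlapped those at SOL.

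Cd74 encodes the invariant chain, which escorts class II pairs to the compartment where peptide is loaded. It read 4.99, 4.89, 4.93 and 5.02 at SOL, 5.26, 5.23, 5.22 and 5.25 at PS, 5.31, 5.19, 5.45 and 5.70 at DR1, 4.98, 5.13, 5.07 and 5.12 at DR4, and 4.84, 4.97 and 5.03 at DR6. The PS and DR1 arrays lay above all SOL arrays, while DR4 and DR6 overlapped SOL. Cd74 was at 137% of SOL at DR1 (0.45, SE 0.084, adjusted p = 0.000307, limma) and 121% at PS (0.28, adjusted p = 0.016, limma), both under 2-fold. At DR1, H2-Aa and Cd74 thus lay on opposite sides of SOL.

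**Figure D2:**
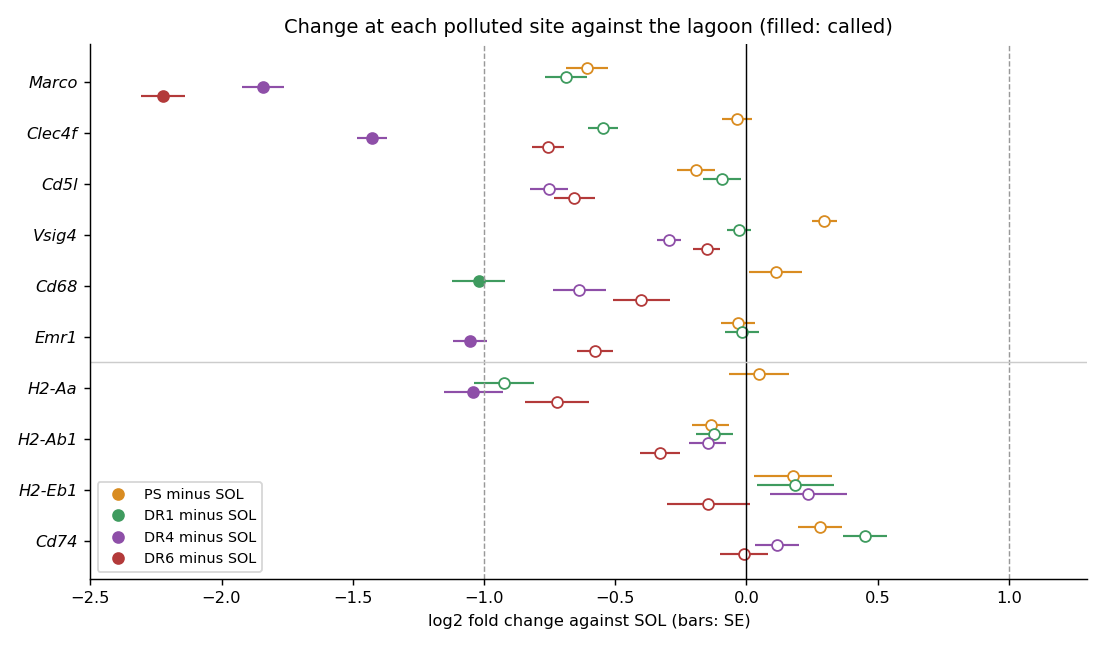
Log2 fold change of each gene at PS, DR1, DR4 and DR6 against SOL, with the SE as a bar; filled points are called and the dashed lines mark 2-fold. The called points are Marco at DR4 and DR6, Clec4f, Emr1 and H2-Aa at DR4, and Cd68 at DR1, all of them lower than SOL.

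Probes of the same class II gene agreed on direction in part only. The second H2-Aa probe, A_52_P343306, gave -0.31 at PS, -0.57 at DR1, -1.15 at DR4 and -0.51 at DR6 against SOL. Both H2-Aa probes were lowest at DR4 and called there, and for the second probe too the call was lost with normexp, without (-0.83) or with (-0.82) quantile scaling. They differed at PS, where A_51_P119760 gave 0.05. The log2 ratio of the first to the second H2-Aa probe moved from 0.38 at DR1 to 1.10 at PS, a range of 0.71 against a spread of 0.11 (SD) between arrays of one place.

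The 4 probes of H2-Ab1 gave 4 patterns. A_51_P215237, printed on 10 spots of every array, gave 0.15 at PS, -0.45 at DR1, -0.47 at DR4 and -0.23 at DR6. Its 10 spots differed by an SD with a median of 0.061 within an array, so the pattern was not set by a single spot. The overlapping pair gave -0.20, -0.41, -0.39 and 0.16 (A_51_P215242) and -0.44, -0.70, -0.31 and -0.02 (A_52_P570717) at PS, DR1, DR4 and DR6. At DR1 and DR4 these 3 probes were each lower than SOL (adjusted p from 1.43e-06 to 0.0027, limma), whereas A_52_P683598 gave -0.12 and -0.15. No H2-Ab1 probe reached 2-fold at any place. The overlapping pair, which share 31 bases and are separated by T5A and T20A within them, kept their ratio within 0.37 over the places, against an SD of 0.17 between arrays. The other pairs of H2-Ab1 probes moved by 0.61 to 0.89.

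**Figure D3:**
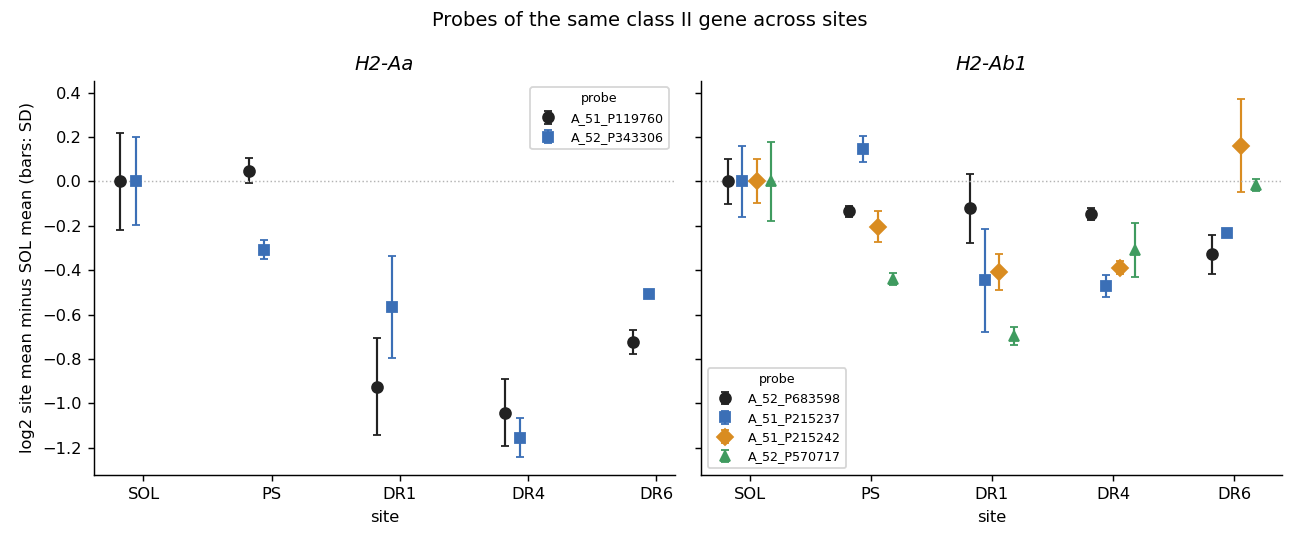
Site mean of each probe of H2-Aa (left) and H2-Ab1 (right) on the log2 scale, minus that probe's SOL mean, with the SD over the arrays of a place as a bar, for the 5 places. The H2-Aa probes are both lowest at DR4 (-1.04 and -1.15) and separate at PS (0.05 and -0.31), and the 4 H2-Ab1 probes separate at DR1, from -0.12 to -0.70.

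Counted over the 10 genes, none (0) was called at PS against SOL, where limma called 4.42% of all genes; 3 of 10 passed the adjusted p alone, against 32.8% of all genes. At DR1, 1 gene (Cd68) was called lower, against 2.55% of all genes called lower, and 5 passed the adjusted p, against 47.7%. At DR4, 4 genes (Marco, Clec4f, Emr1 and H2-Aa) were called lower, against 5.1% of all genes. The adjusted p alone was passed by 7, all lower, against 31% of all genes lower by that rule. At DR6, 1 gene (Marco) was called lower, against 2.28% of all genes, and 8 passed the adjusted p, all lower, against 23.4%. The median change of the 6 macrophage genes was -0.03 at PS, -0.32 at DR1, -0.90 at DR4 and -0.62 at DR6, and that of the 4 class II genes 0.11, 0.03, -0.01 and -0.24, beside -0.01, 0.01, -0.05 and -0.00 for all genes. The 4 comparisons share the SOL arrays. With the normexp background the members past the adjusted p were 0 at PS, 2 at DR1 (Cd68 and H2-Aa), 5 at DR4 (Marco, Clec4f, Cd5l, Emr1 and H2-Aa) and 2 at DR6 (Marco and Clec4f), and no difference of Vsig4 or Cd74 passed. Under that setting 1.97% of all genes passed at PS, 6.04% at DR1, 13.7% at DR4 and 3.39% at DR6.

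Between polluted places, PS and DR4 differed in the same 4 genes as SOL and DR4. Marco, Clec4f, Emr1 and H2-Aa were higher at PS by 1.23, 1.39, 1.02 and 1.09, and 4.32% of all genes were called higher at PS in that comparison. Marco was also higher at PS than at DR6 (1.62, against 2.51% of all genes), and Cd68 higher at PS than at DR1 (1.13, SE 0.10, adjusted p = 1.33e-07, limma, against 2.64%). Within the stream, 2 members, Marco (1.15) and Emr1 (1.03), were higher at DR1 than at DR4, against 3.05% of all genes. Marco was also higher at DR1 than at DR6 (1.54), against 3.26%. The PS calls over DR4 were lost for Emr1 (0.92) and H2-Aa (0.88) with normexp and quantile scaling, for Emr1 without PS replicate 2 (0.999) and for H2-Aa with the mean of its probes (0.97). That of Cd68 over DR1 was lost under both normexp settings (0.77 and 0.68), and Marco at DR1 over DR4 fell just short (0.999) with normexp and quantile scaling. By the brightest probe of each gene, DR4 and DR6 differed by 2-fold in none (0) of the 10 genes, against 6.16% of all genes called. By adjusted p, Marco was higher at DR4 than at DR6 (0.38), and Clec4f, Emr1, H2-Aa and Vsig4 were higher at DR6 (0.67, 0.48, 0.32 and 0.14). The share of all genes past the adjusted p in that comparison is not given here.

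Over the 5 places together, 5 of the 10 genes (Marco, Clec4f, Cd68, Emr1 and H2-Aa) passed limma's F test with a range of at least 2-fold, against 23.1% of all genes. By the adjusted p of that test alone it was 9 of 10, all but H2-Eb1, against 79.6% of all genes. When each pool counted as a single unit, and each pool was set against the other 4, no member (0) was called. The smallest adjusted p of a member was 0.74 (limma), for Clec4f (-1.09) and Emr1 (-0.90) at DR4. By that adjusted p limma called 0% of all genes for the SOL and DR1 pools and 0.00612% for each of the PS, DR4 and DR6 pools. Clec4f and Emr1 at DR4 were also the 2 members under an unadjusted 0.05, which 6.56% of all genes passed there.

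Of 41 other macrophage genes listed, 37 were on the array and tested. Of these, 1 was called lower (Cd63 at DR4, Itgam at DR6) and none (0) higher at each of DR4 and DR6. Of all genes, 5.1% and 2.28% were called lower there, and 5.43% and 4.67% higher. At PS 1 was called higher and 2 lower, where 4.42% of all genes were called in either direction. At DR1 1 was called lower, against 2.55% of all genes. By adjusted p alone 17 were lower and 3 higher at DR4, and 21 lower and 4 higher at DR6, where 31% and 23.4% of all genes were lower. The shares of all genes that were higher by that rule were 23.9% at DR4 and 20.5% at DR6. At PS, 5 were lower and 9 higher, against 16.4% of all genes each way. At DR1, 9 were lower and 10 higher, against 23.2% and 24.5%, and without SOL replicate 4 the higher count was 6. Their median change was 0.12 at PS, 0.12 at DR1, -0.24 at DR4 and -0.33 at DR6. Cd63, a lysosomal and vesicle membrane protein that many cells express, fell at PS (-1.10), DR1 (-1.68) and DR4 (-1.60). Cd163, the haemoglobin scavenger receptor, fell at PS alone among calls against SOL (-2.09, SE 0.23, adjusted p = 2.73e-06, limma). Folr2, a folate receptor of resident macrophages, rose at PS (1.42, SE 0.15, adjusted p = 2.09e-06, limma), a call lost with normexp (0.48). Itgam, the integrin CD11b, is named after its values were seen as the gene called at DR6 (-1.01), measured well above background on 2 of 3 DR6 arrays; the call was lost with normexp (-0.17) and without SOL replicate 3 (-0.92), SOL replicate 4 (-0.99) or DR6 replicate 2 (-0.82). By adjusted p under normexp, 2 of the 37 were lower and 1 higher at PS, 1 lower and 3 higher at DR1, 7 lower and none (0) higher at DR4, and 1 lower and none (0) higher at DR6. The shares of all genes lower under that setting were 1.11%, 2.89%, 9.4% and 1.51%, and the shares higher were 0.863%, 3.15%, 4.28% and 1.88%, in the same order of places. Lyzs, lysozyme, was at -0.88 at DR6 (adjusted p = 1.66e-09, limma) and -0.00 at DR4.

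Of 15 other class II pathway genes tested, only C2ta was called against SOL, at DR4 (-1.18, SE 0.14, adjusted p = 2.19e-06, limma). There 5.1% of all genes were called lower. C2ta, now named Ciita, encodes the transactivator that switches on class II genes. It was at -0.00 at PS, -0.89 at DR1 and -0.84 at DR6. As with H2-Aa, the means of SOL and PS lay above those of the 3 stream places. The means of H2-Ab1 (brightest probe), H2-Eb1 and Cd74 did not lie so. At DR1 these were at -0.12, 0.19 and 0.45 against SOL, and at DR4 at -0.15, 0.24 and 0.12. Whether C2ta bears on the class II members was not tested. The C2ta probe is weak (-2.27 at SOL), and its DR4 call was lost with normexp, without (-0.05) or with (-0.28) quantile scaling. At so weak a signal the normexp offset shrinks any fold, so that loss does not test the call. The median change of these 15 genes was 0.18 at PS, 0.12 at DR1, -0.03 at DR4 and -0.08 at DR6. By adjusted p 5 were higher and none (0) lower at PS, against 16.4% of all genes each way. At DR1 6 were higher and 4 lower, against 24.5% and 23.2%. At DR6 3 were higher and 6 lower, against 20.5% and 23.4%. The higher count at DR6 was 1 without SOL replicate 3 or DR6 replicate 1. At DR4 4 were higher and 5 lower, against 23.9% and 31% of all genes. Under normexp 1 was higher and 2 lower there, against 4.28% and 9.4%.

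Class I genes, which present peptides from within the cell, were tested as a neighbouring pathway. Of 16, 1 was called against SOL: Tap2, a subunit of the peptide transporter, fell at DR1 (-1.17, SE 0.098, adjusted p = 6.28e-08, limma). There 2.55% of all genes were called lower. By adjusted p alone 2 were lower and 6 higher at PS, against 16.4% of all genes each way, and 7 lower and 4 higher at DR1, against 23.2% and 24.5%. At DR4, 13 were lower and 2 higher, against 31% and 23.9%. At DR6, 10 were lower and none (0) higher, against 23.4% and 20.5%. Without DR6 replicate 3 the lower count at DR6 was 6, and the higher count at DR4 was 1 without SOL replicate 4, DR4 replicate 2 or DR4 replicate 3. Under normexp none (0) was lower at PS, 2 at DR1, 5 at DR4 and 1 at DR6, with none higher at any of the 4 places. The shares of all genes lower under that setting were 1.11%, 2.89%, 9.4% and 1.51%. The shares higher were 0.863%, 3.15%, 4.28% and 1.88%, in the same order of places. The Tap2 call at DR1 was kept under normexp. Tap1, the partner of Tap2, was at 0.48 at PS and -0.94 at DR1, and Pdia3, a chaperone of peptide loading, was at -0.78 at DR6. Of 14 genes known to respond to interferon gamma, which induces class II genes, 10 were lower and 1 higher at DR4 by adjusted p, against 31% and 23.9% of all genes, and 13 lower and 1 higher at DR6, against 23.4% and 20.5%. At PS 1 was lower and 4 were higher, against 16.4% of all genes each way. At DR1 4 were lower and 3 higher, against 23.2% and 24.5%. Under normexp 3 were lower at DR4, against 9.4% of all genes. None (0) was lower at PS, DR1 or DR6, against 1.11%, 2.89% and 1.51%. Single arrays moved 3 of these counts: the lower count at PS was 2 without SOL replicate 1, DR1 replicate 4 or DR6 replicate 1, the higher count at DR4 was 2 without PS replicate 4, and that at DR6 was 0 without SOL replicate 1 or DR6 replicate 1. Gbp1, a guanylate-binding GTPase, fell at DR4 (-1.61) and DR6 (-1.41), and Gbp2 fell at DR6 (-1.02). Tgtp, another interferon-induced GTPase, rose at PS (1.98), DR1 (1.07) and DR4 (1.39), and Cd274, which encodes PD-L1, was at -0.93 at DR6, where 1 of 3 arrays was well above background. The calls of Gbp1 (-0.53 and -0.66) and Gbp2 (-0.77) were lost with normexp, that of Gbp2 also without SOL replicate 2 (-0.98), SOL replicate 4 (-0.99) or DR6 replicate 1 (-0.97), and those of Tgtp at DR1 (0.81) and DR4 (0.92) with the mean of its probes.

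**Figure D4:**
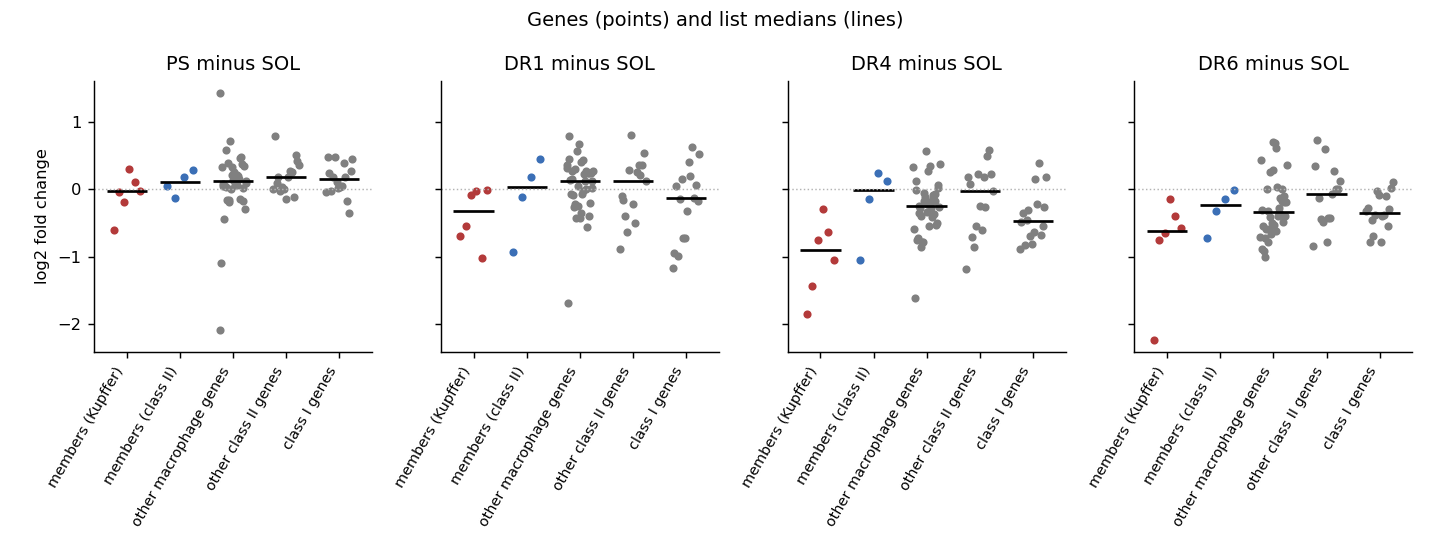
Log2 fold change against SOL of each gene (point) and the median of each list (line) for the 6 macrophage members, the 4 class II members, 37 other macrophage genes, 15 other class II genes and 16 class I genes, in a panel for each of PS, DR1, DR4 and DR6. The medians of the macrophage members are -0.90 at DR4 and -0.62 at DR6, below those of the other macrophage genes (-0.24 and -0.33).

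Markers of other liver cells moved with these results as follows, and their part in the results was not tested. Of 12 sinusoidal endothelial genes tested, none (0) was called against SOL. Of all genes, 4.42% were called at PS, and 2.55%, 5.1% and 2.28% were called lower at DR1, DR4 and DR6. By adjusted p 6 of the 12 were lower and none higher at DR4 (median -0.35, from -0.66 to 0.20), against 31% of all genes lower there. At DR6, 2 were lower (median -0.03), against 23.4% of all genes, and 1 without DR6 replicate 1 or 2. Of 10 hepatocyte genes, 4 were higher and 4 lower at DR4 (from -0.81 to 0.81), against 23.9% and 31% of all genes. At DR6 5 were higher and 1 lower (median 0.43), against 20.5% and 23.4%. Under normexp 3 of the endothelial genes and 1 of the hepatocyte genes were lower at DR4, against 9.4% of all genes. None of either list was lower at DR6, against 1.51%. G6pc, the glucose-releasing phosphatase of hepatocytes, fell at PS (-1.26) and was at 0.81 at DR4. Of 12 monocyte and neutrophil genes tested, 8 were higher at DR1 by adjusted p (median 0.64), against 24.5% of all genes. Under normexp 3 were higher there, against 3.15%. In the main fit 1 was lower at DR1 (-0.76), against 23.2% of all genes. At PS 5 were higher and none (0) lower (median 0.40), against 16.4% of all genes each way. The lower count at PS was 1 without PS replicate 4. F13a1, a monocyte-expressed clotting factor subunit, was well above background on the 4 DR1 arrays only, so it passed the detection filter through DR1. It was at least 2.33-fold higher there than at SOL, taking for each SOL array the higher of its own signal and the lowest signal well above background. The fitted difference was 1.88 (adjusted p = 3.19e-05, limma), from SOL signals not well above background. That p is no separate support, since DR1 alone let the gene into the test. The count of 8 genes higher at DR1 and the median of 0.64 include F13a1. In the same list S100a9 and S100a8, the calprotectin subunits, were at 0.95 and 0.98 at DR1. At DR4 and DR6 the medians of that list were 0.22 and -0.05. With the normexp background the calls of F13a1 (0.02) and G6pc (-1.19, adjusted p = 0.069, limma) were lost.

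B cells and dendritic cells also carry class II molecules. Of 14 B and plasma cell genes, 9 were tested, and Cd79a, Cd22, Blk, Pax5 and Fcer2a did not pass the detection filter. The median of the 9 was 0.87 at PS, 0.48 at DR1, 0.49 at DR4 and 0.53 at DR6. By adjusted p 5 were higher and 1 lower at PS, against 16.4% of all genes each way. At DR1 4 were higher and none (0) lower, against 24.5% and 23.2%. At DR4 3 were higher and 1 lower, against 23.9% and 31%. At DR6 5 were higher and 2 lower, against 20.5% and 23.4%. The 9 include a gene, highest at PS, that was well above background on 3 arrays in all. A single place thus let it into the test, so it adds no separate support. Cd79b, a subunit of the B cell receptor, rose at PS (1.80), DR1 (1.14) and DR6 (1.45), and Igj, the joining chain of secreted antibodies, rose at PS (1.51). At DR1 Igj was at 1.03, and it missed the 2-fold limit there without SOL replicate 3 (0.99), SOL replicate 4 (0.998), DR1 replicate 1 (1.00) or DR1 replicate 2 (0.93). Pou2af1, a B cell coactivator, rose at PS (1.15), and Cr2, a complement receptor of B cells, fell at DR4 (-1.22) and DR6 (-1.01), the latter lost without SOL replicate 3 (-0.98), SOL replicate 4 (-0.99) or DR6 replicate 1 (-0.87). Of 13 dendritic cell genes on the array, 7 were tested, and Cd209a, Siglech, Clec9a, Ccr7, Btla and Cd207 did not pass the filter. The median of the 7 lay between -0.11 and 0.05, and the 1 called gene was Klrd1, also a gene of natural killer cells, which was not well above background on any SOL array. At DR4 and DR6, 5.43% and 4.67% of all genes were called higher. By the same bound Klrd1 was at least 1.52-fold higher than SOL at DR1, 1.61-fold at DR4 and 1.87-fold at DR6. The fitted differences were 1.19, 1.27 and 1.49 (adjusted p = 0.000275, 0.000101 and 8.00e-05, limma), and those p-values do not test the bounds. Of 14 T and natural killer cell genes tested, 8 were higher and none (0) lower at PS by adjusted p (median 0.54). The share of all genes there was 16.4% each way. Among the 8 is a gene, highest at PS, that was well above background on 3 arrays in all. A single place thus let that gene into the test, so it adds no separate support to the count. At DR1 3 were higher and 2 lower (median 0.10), against 24.5% and 23.2% of all genes. At DR4 1 was higher and 2 lower (median 0.13), against 23.9% and 31%. At DR6 6 were higher and 1 lower (median 0.39), against 20.5% and 23.4%. Gzmb, a granzyme, rose at DR6 (1.23). Gzma was at 0.98 at DR6, and Cd8a at 0.56 at PS and -0.64 at DR6. With the normexp background the calls of Igj at DR1, Cr2, Cd79b, Pou2af1, Klrd1 and Gzmb were lost, and that of Igj at PS was kept.

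Among 12118 genes well above background on all arrays, those with the place profile most like each member that spanned 2-fold were named, by the largest difference over the 5 centred place means. For Marco these were 1700066C05Rik (0.25), Ptpn14 (0.40) and Srms (0.41), and for Clec4f they were Rassf6 (0.11), Tmem98 (0.12) and 6230410P16Rik (0.14). Cd68 was nearest to Pfdn1 (0.092), Mbd3 (0.11) and Rpusd1 (0.12), and Emr1 to Pik3c2g (0.069), Acot6 (0.082) and Pls3 (0.097). H2-Aa was nearest to Unc13b (0.058), Il2rg (0.073) and Fibp (0.078). Within 0.25 of the profile lay 1 gene for Marco, 49 for Clec4f, 95 for Cd68, 89 for Emr1 and 45 for H2-Aa. Among the members themselves, the nearest profiles were those of H2-Eb1 and Cd74 (0.20), H2-Ab1 and H2-Eb1 (0.24) and Cd68 and H2-Aa (0.26), and the farthest those of Marco and Cd74 (1.24).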

How the data were processed

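The deposited files are scanner outputs of 19 single-colour (Cy3) Agilent arrays, which the authors made with Feature Extraction (Agilent, version 9.5.3.1 in the submitters' processing notes). The deposited values used are intensity values (the processed signal, already background-corrected, per the file headers). The deposited value table of the series holds the same intensity, rounded, with at most 0.497% difference, and column medians of 9.72 to 24.8; its scale is linear and uncentred. DR1 was extracted with an older array design, in which 5.84% of gene names differ, but 0 of the members'; genes were matched by probe.

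Each spot's log2 signal was computed from the deposited intensity, minus the array's 75th percentile over 43379 gene spots (1639 control spots were left out). Spots with an outlier flag were set missing, and spots of a probe were averaged. The 23458 probes kept were those that at least 3 arrays of any place measured well above background, and the brightest kept probe stood for its gene. Place means were fitted with limma 3.58.1 in R 4.3.3, for the 10 pairs of places and all genes, with Benjamini-Hochberg adjustment. The number of arrays limits the precision. The code was tested on simulated data. Gene names are those of the array design and can be old. The members, the lists and the tests were chosen with earlier results of these data known. Named genes are all members, up to 4 genes of each list called in the most comparisons, and the 3 nearest profiles of each member spanning 2-fold; 1 gene of a list is not reported here. No genome was used, and positions are those in the files. Other scalings, backgrounds, filters, probe rules and left-out arrays were tried.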

Additional observations from a re-analysis of the deposited data

Results flagged for a closer look

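A single value stood apart from the other arrays of its place. Clec4f on PS replicate 3 read 2.30 on the log2 scale relative to the array's 75th percentile, against 2.35 on the other 3 PS arrays. It was 1 of 40 groups of 4 arrays examined by Dixon's criterion, where chance flags about 1 in 20. The PS difference of Clec4f from SOL was -0.04 with this array.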

How the results depend on the processing

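Of the counts of called members, 95 of the values under other settings stayed within 1.5 times and 12 moved. Under median scaling, PS and DR1 differed in 2 members; under quantile scaling DR1 and DR4 in 1, and with the mean of all probes in 1. With normexp and quantile scaling the counts were 0 for DR1 and 2 for DR4 against SOL, 0 for PS and DR1, 2 for PS and DR4, 0 for DR1 and DR4, and 2 among the 5 places (Marco and Clec4f). With normexp alone they were 0 for DR1 against SOL, 0 for PS and DR1, and 4 for DR1 and DR4. The cause was not tested; the SE of Cd5l at DR1, for example, was 0.074 and became 0.28 with normexp alone. Leaving out each array in turn gave 0 to 2 called members at DR1 against SOL, 3 to 4 at DR4 against SOL, 1 to 2 for PS and DR1, and 3 to 4 for PS and DR4; no other count moved.

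Among the members, signs turned only for small differences from SOL, none of them called. Under median scaling Clec4f and Emr1 at PS were at 0.0457 and 0.0513. With normexp, Cd5l (0.157) and Vsig4 (0.0851) at DR1, H2-Eb1 (-0.172) and Cd74 (-0.354) at DR4, and H2-Ab1 probe A_52_P570717 at DR6 (0.0286, and 0.0278 with quantile scaling) turned. Klrd1 at DR1, which was called, turned to -0.0152. With the mean of probes H2-Aa at PS was -0.129. Leaving out single arrays gave -0.0613 to 0.00361 for Clec4f at PS, -0.0515 to 0.0435 for Cd74 at DR6, -0.0758 to 0.0654 for A_52_P570717 at DR6, -0.0512 to 0.0192 for Emr1 at DR1 and -0.0457 to 0.116 for H2-Aa at PS.

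Arrays with the same replicate number deviated together in part: 16 of 36 such pairs had a correlation over 0.1 (median 0.088), against 15 of 108 pairs with different numbers (median -0.034), and 11 of 19 arrays correlated best with an array of their own number. Since not every pair passed 0.1, the numbers were not taken to pair the arrays. With the replicate block, the members called were 0 at PS, 1 at DR1, 4 at DR4 and 1 at DR6, as without it, and Cd74 at DR6 turned to 0.0255. Of the other genes named, Cr2 (-0.995) and Itgam (-0.989) at DR6 lost their call with the block.

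Over all genes, the 10 comparisons called 722 to 1722 genes, but 195 to 599 with normexp and quantile scaling and 153 to 768 with normexp. The share of calls that were higher moved from 67.2% to 55.8% at DR6 with median scaling, and from 51.6% to 25.5% at DR4 with normexp. Median scaling moved the median of all genes for PS against DR6 to 0.18.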
